A study of Mus musculus with 2 samples.

Results

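The Zfp genes are the mouse genes named for zinc finger proteins, and 241 of them were expressed in the newborn cortex at the level set here. They were chosen as genes whose symbol is Zfp followed by a number and at most 1 letter, which have a protein-coding transcript in the annotation and reach a TPM of 5 or more in both libraries. TPM is a gene's share of the transcripts of its library, scaled to a fixed total and corrected for length. Of 55536 annotated genes, 400 carried such a symbol, 391 of these had a protein-coding transcript, and 241 of the 391 (61.6%) reached the minimum, against 10413 of 22028 protein-coding genes (47.3%). The members were thus chosen by their TPM in the same 2 libraries, so levels are given as a description with no test. Total RNA came from the left cerebral cortex of male B6CASTF1/J mice, an F1 cross of the C57BL/6 and CAST strains, aged 4 days. There was 1 group of 2 libraries, replicate 1 and replicate 2, each made from 300 ng of RNA with ribosomal RNA reduced and ERCC spike-in RNAs added. The labels list a separate tissue sample for each library under 1 donor number, and no treatment or other group, and whether the libraries come from separate animals could not be settled. Differences between the libraries are thus differences between samples of 1 kind, the spread may be that of 1 animal, and p-values measure those 2 libraries alone. Values were set against the mm10 genome, and the 2 parental alleles were not told apart.

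A classical zinc finger is a short fold in which a pair of cysteines and a pair of histidines hold a zinc ion, and a run of such fingers reads DNA a few bases at a time. Many of these proteins also carry a KRAB box, which recruits the corepressor Trim28 (KAP1) and, through it, histone methylation that silences retroelements and holds imprints in place. KRAB zinc finger genes have multiplied by duplication in mammals and lie in clusters of near copies. Zinc finger proteins without a KRAB box include activators, proteins that bind RNA and subunits of chromatin complexes.

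The fold can be seen in the coding bases. These 6 stretches are the first zinc finger pattern in the annotated coding sequences of 6 of the 7 highest members, shown because they span the range from a single finger to 33. They are GENCODE M21 transcript sequences, 5′ to 3′ on the coding strand, and capitals mark the codons of the 4 residues that bind zinc, which were found as 2 cysteines 2 to 4 residues apart, 12 further residues, and 2 histidines 3 to 5 residues apart.
Zfp706: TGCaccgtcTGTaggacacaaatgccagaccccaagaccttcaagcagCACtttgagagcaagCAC
Zfp57: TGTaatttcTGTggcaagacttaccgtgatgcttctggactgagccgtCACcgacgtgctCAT
Zfp445: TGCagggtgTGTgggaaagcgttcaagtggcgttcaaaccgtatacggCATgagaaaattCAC
Zfp207: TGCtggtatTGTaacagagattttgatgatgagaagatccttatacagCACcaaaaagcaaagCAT
Zfp638: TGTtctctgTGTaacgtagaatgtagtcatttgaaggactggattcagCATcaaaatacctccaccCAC
Zfp462: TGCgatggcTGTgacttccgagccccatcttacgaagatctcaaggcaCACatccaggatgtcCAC
The pattern was found once in Zfp706, 3 times in Zfp57, 12 times in Zfp445, 2 times in Zfp207 and in Zfp638, and 33 times in Zfp462. The stretches run over 63 to 69 bases, and the spacing of the histidines makes the difference in length.

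By the mean TPM of the 2 libraries Zfp706 stood highest in the newborn cortex, and the next were Zfp57 and Zfp445, the KRAB proteins that guard imprints. Zfp706 (15:36997027–37007773), a small protein known from the exit of mouse embryonic stem cells from self-renewal, was at 125 TPM in replicate 1 and 118 TPM in replicate 2. Zfp57 (17:37001163–37010635) was at 109 and 95.7 TPM, and Zfp445 (9:122844529–122866006) at 102 and 95.1 TPM. The interval of the TPM that the authors deposited for each library ran from 102 to 112 TPM in replicate 1 and from 89.9 to 98.98 TPM in replicate 2 for Zfp57, and from 93.5 to 104 TPM and from 87.6 to 97.4 TPM for Zfp445. The 2 genes therefore could not be put in order beyond their spread. Zfp512b was next at 95.3 and 98.0 TPM. Zfp207, a protein of the mitotic spindle and kinetochore also called BuGZ, was at 103 and 81.0 TPM. The order behind Zfp706 differed between the libraries: Zfp207 was above Zfp445 in replicate 1, and Zfp512b was above Zfp57 and Zfp445 in replicate 2. In the other of the 2 deposited quantifications the means were 278 TPM for Zfp706, 169 TPM for Zfp57, 160.2 TPM for Zfp512b and 142 TPM for Zfp445. Zfp638, which silences unintegrated retroviral DNA, was at 80.6 and 69.3 TPM, and Zfp462, whose human counterpart is a gene of a neurodevelopmental syndrome, at 71.3 and 61.1 TPM. These 7 genes stood far above the median member, which was at 13.4 TPM, with medians of 13.8 TPM in replicate 1 and 13.4 TPM in replicate 2. The median of the 10413 protein-coding genes at the same minimum was 24.2 TPM.

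**Figure D1:**
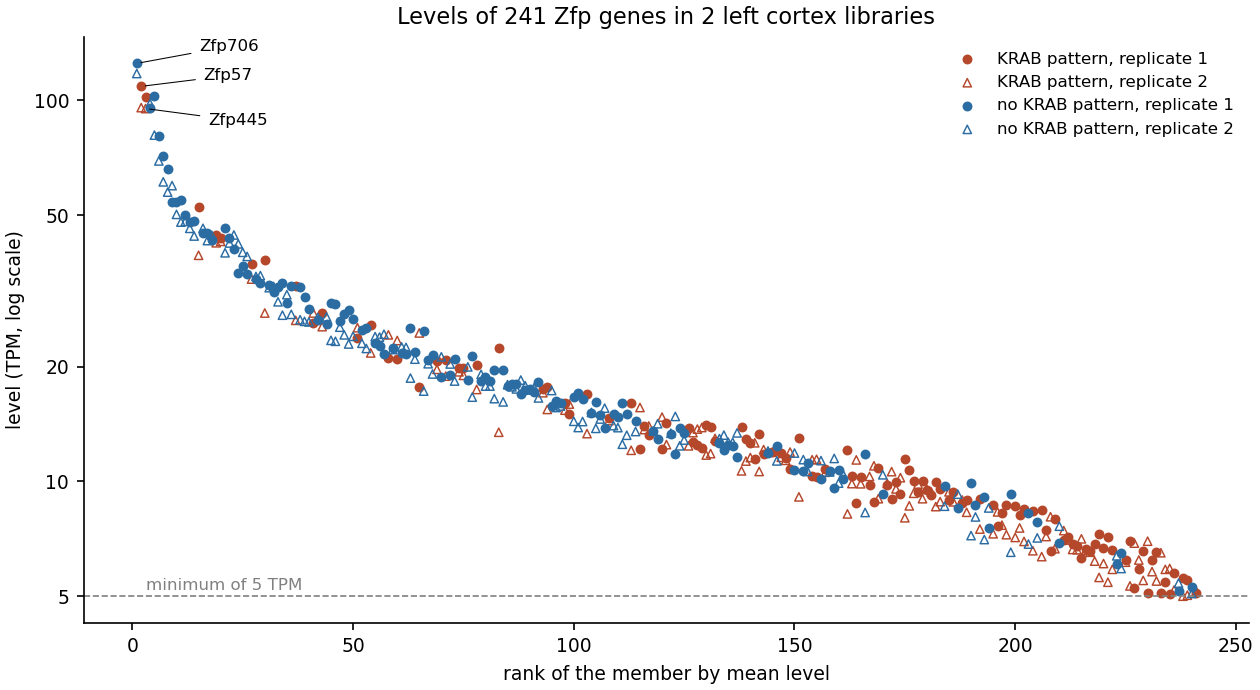
TPM of each of the 241 members in both libraries (log scale) against its rank by mean level, coloured by the KRAB letter pattern; filled circles are replicate 1 and open triangles replicate 2, and the dashed line is the minimum of 5 TPM. Levels fall steeply over the first members and slowly after, and members with the KRAB pattern are 5 of the first 20 and 16 of the last 20.

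Behind these genes the levels fell off slowly. The 13 further genes of the 20 highest ran from 61.7 TPM for Zfp532 down to 43.0 TPM for Zfp871 by mean level. Zfp532, a partner of other zinc finger proteins in a chromatin complex known in human cells, was at 66.0 TPM in replicate 1 and 57.4 TPM in replicate 2, Zfp46 at 54.0 and 59.7, and Zfp428 at 54.0 and 50.2. Zfp644, a partner of the histone methyltransferases G9a and GLP, was at 54.7 and 47.9 TPM, Zfp148, which binds GC-rich promoters, at 49.9 and 48.1, and Zfp318, which controls the end of immunoglobulin transcripts in B cells, at 48.0 and 46.1. The 20 highest members held 27.8% of the summed TPM of all members, and the 61 lowest held 9.44%. Only 11 members had a mean of 50 TPM or more, and 74 were below 10 TPM, 59 of the 118 with a KRAB pattern and 15 of the 123 without. All members together held 0.963% of the expected counts of annotated genes in replicate 1 and 0.936% in replicate 2. The fewest reads behind a member in a library were 118 expected counts.

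The minimum cut through a dense part of the range. Just inside it stood Zfp273 (5.58 TPM in replicate 1, 5 in replicate 2), Zfp354a (5.53, 5.03), Zfp667 (5.07, 5.91), Zfp105 (5.29, 5.08) and Zfp551 (5.09, 6.50). Just outside stood Zfp729b (5.66, 4.99), Zfp143 (4.94, 6.45), Zfp182 (6.80, 4.91), Zfp748 (5.06, 4.83) and Zfp383 (5.35, 4.80). In the lower of its 2 libraries 20 members lay between 5 and 6 TPM and 20 other Zfp genes between 4 and 5 TPM. The deposited interval reached below 5 TPM in at least 1 library for 18 members, and it reached 5 TPM or more in both libraries for 19 genes outside. Of the 150 protein-coding Zfp genes outside, 38 were under 1 TPM in both libraries and 9 had no read. A count of 0 allows up to 3 counts for these 9 genes, or 0.112 CPM in the library of replicate 1 and 0.102 CPM in that of replicate 2.

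Genes known for imprint and retroelement control were spread over the whole range. Of 6 listed, 4 were members, namely Zfp57, Zfp445, Zfp932 and Zfp809. Zfp932, which acts on endogenous retroviruses, was at 38.1 TPM in replicate 1 and 27.7 TPM in replicate 2. Zfp809, which silences retroviruses through their primer binding site, was at 6.84 and 6.18 TPM. Outside stood Zfp568, which silences a placental Igf2 transcript, at 2.70 and 2.77 TPM, and Zfp708 at 3.61 and 2.85 TPM. Zfp708 shares 95.6% of its 31-base words with other genes, so its level is uncertain. In both libraries the 2 imprint guardians were above the other 4 genes of the list.

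The level of Zfp57 was given to transcripts with several annotated starts, whose promoters are shown here beside the transcript levels. They are RefSeq promoters of build GRCm38.p6, each running from 250 bases before to 50 bases after a start, 5′ to 3′ on the strand of the gene, and capitals mark CG dinucleotides. Promoter 1 of Zfp57 is chr17:37000913-37001212, promoter 2 is chr17:37002275-37002574 and promoter 3 is chr17:37003416-37003715, all on the + strand, and that of Zfp445 is chr9:122865957-122866256 on the − strand.
Zfp57 promoter 1: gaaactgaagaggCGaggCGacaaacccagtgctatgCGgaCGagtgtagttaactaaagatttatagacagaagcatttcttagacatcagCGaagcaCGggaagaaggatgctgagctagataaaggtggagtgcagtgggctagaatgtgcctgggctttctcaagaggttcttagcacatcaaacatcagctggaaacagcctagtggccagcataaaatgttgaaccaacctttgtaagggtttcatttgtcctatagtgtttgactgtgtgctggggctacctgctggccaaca
Zfp57 promoter 2: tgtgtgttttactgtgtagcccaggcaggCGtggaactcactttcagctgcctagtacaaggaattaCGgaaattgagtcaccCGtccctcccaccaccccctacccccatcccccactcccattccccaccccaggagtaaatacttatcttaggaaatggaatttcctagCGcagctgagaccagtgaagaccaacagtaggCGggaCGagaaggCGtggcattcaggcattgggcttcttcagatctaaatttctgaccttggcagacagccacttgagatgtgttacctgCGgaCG
Zfp57 promoter 3: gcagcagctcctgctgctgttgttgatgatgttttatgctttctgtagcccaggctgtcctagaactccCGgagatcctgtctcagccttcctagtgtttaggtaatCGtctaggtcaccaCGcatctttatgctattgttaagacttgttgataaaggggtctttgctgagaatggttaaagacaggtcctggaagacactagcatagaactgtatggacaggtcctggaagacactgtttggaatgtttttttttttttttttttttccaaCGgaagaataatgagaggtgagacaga
Zfp445 promoter: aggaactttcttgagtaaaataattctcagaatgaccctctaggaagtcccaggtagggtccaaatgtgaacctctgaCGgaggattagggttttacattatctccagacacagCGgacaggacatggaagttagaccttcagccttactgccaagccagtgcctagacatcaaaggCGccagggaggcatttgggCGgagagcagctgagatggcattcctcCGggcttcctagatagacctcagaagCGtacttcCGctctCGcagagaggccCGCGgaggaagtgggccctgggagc
They held 6, 9, 4 and 10 CG dinucleotides in this order, and the 32851 promoters of the table had a median of 7. Transcripts that start within 100 bases of promoter 3 of Zfp57 held 38.6 TPM in replicate 1 and 32.6 TPM in replicate 2, all of it in Zfp57-212. Those at promoter 2 held 37.2 and 32.4 TPM, most of it in the retained-intron transcript Zfp57-210 (34.4 and 30.4 TPM). The single transcript at promoter 1, Zfp57-202, held 7.44 and 5.27 TPM, and Zfp57-211, a coding transcript that starts between promoters 2 and 3, held 25.1 and 25.2 TPM. In both libraries the sums at promoters 2 and 3 were close, and each was higher than that at promoter 1. In the other quantification the transcripts at promoter 1 had 27.4 and 25.3 TPM. Those at promoter 2 had 85.9 and 69.2 TPM, and those at promoter 3 50.3 and 42.8. The sum at promoter 2 was then above that at promoter 3, and that at promoter 1 was the lowest again. These are levels given to annotated transcripts, and the use of each promoter was not measured. For Zfp445, transcripts that start within 100 bases of its promoter held 76.6 TPM in replicate 1 and 73.7 TPM in replicate 2. That is 75.1% and 77.5% of the gene's TPM. The 645-base Zfp445-208 held 33.0 and 31.2 TPM of it, but was at 0 in the other quantification. That quantification gave 63.5 and 59.2 TPM to Zfp445-204 (747 bases), which was at 1.10 and 0.71 TPM in the first. There the transcripts at the promoter had 119 and 114 TPM. Only 175 members (72.6%) had an entry within 1 kb of the start of their highest transcript, under the 80% needed for a comparison over the members, so none is given.

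Genes of neural development were nearly all expressed, at moderate levels. Of 16 listed, 14 were members, and the median of the 16 was 15.2 TPM. Behind Zfp462 and Zfp148, Zfp369, which binds the neurotrophin receptor p75 in mouse cells, was at 37.2 TPM in replicate 1 and 34.0 TPM in replicate 2, and its relative Zfp110 at 10.4 and 11.4 TPM. Zfp292 was at 22.4 and 22.2 TPM, Zfp24, which mouse oligodendrocytes need for myelination, at 18.8 and 21.2, and Zfp365, a partner of the neurodevelopmental protein Disc1, at 20.9 and 18.3. Zfp423, a factor of cerebellar growth, stood at 17.4 and 17.8 TPM, Zfp536, which holds back neuronal differentiation, at 16.3 and 15.6, and Zfp335, a microcephaly gene, at 15 and 14.01. Zfp703 was at 13.6 TPM in both libraries, Zfp804a, near a human schizophrenia risk variant, at 13.3 and 13.4, Zfp407 at 11.2 and 10.6, and Zfp521, a factor of early neural fate, at 9.62 and 11.5. The 2 listed genes outside were Zfp488 and Zfp503. Zfp488, an oligodendrocyte factor, was at 1.43 and 1.40 TPM, and Zfp503, a striatal factor, at 1.10 and 2.52 TPM. In the other quantification Zfp488 had a mean of 10.7 TPM and Zfp503 of 2.66 TPM, so the level of Zfp488 is uncertain.

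Genes known for RNA, ribosome and related work had 13 members of 14 listed, with a median of 24.6 TPM over the 14. Besides Zfp706, Zfp207 and Zfp638, Zfp106, an RNA-binding protein that mouse motor neurons need, was at 40.8 TPM in replicate 1 and 44.3 TPM in replicate 2, and Zfp326, which couples elongation to splicing, at 32.4 and 26.6. Zfp330 was at 28.4 and 26.2 TPM, Zfp385a at 26.3 and 25.4 and Zfp385b at 16.5 and 14.4. The ribosome factors differed among themselves. Zfp598, which marks collided ribosomes, was at 22.7 and 23.9 TPM, Zfp622, which matures the large subunit, at 21.6 and 22.5, and Zfp593, which acts in the same pathway, at 8.27 and 6.85. Zfp346, which binds double-stranded RNA, stood at 21.4 and 16.6 TPM, and Zfp830 at 7.56 and 8.52. The gene outside was Zfp36, which speeds the decay of inflammatory mRNAs, at 1.15 and 0.74 TPM.

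Of the 16 genes listed as partners in chromatin complexes or in protein modification, 12 were members, with a median of 16.3 TPM over the 16. The SUMO ligase Zfp451 was at 44.9 TPM in replicate 1 and 42.8 TPM in replicate 2, and the ubiquitin ligase Zfp91 at 31.4 and 32.5. Zfp410, which drives Chd4 in mouse and human cells, was at 28.1 and 22.9 TPM, and Chd4, a NuRD subunit, at 86.5 and 96.4 TPM. Zfp592 and Zfp687, which share a complex with Zfp532 in human cells, were at 13.4 and 12.8 TPM and at 11.8 and 14.8 TPM. Zfp532 was thus far higher than either in both libraries. Zfp518b was at 18.4 and 19.1 TPM, Zfp219 at 18.3 and 17.8, Zfp281 at 18.0 and 17.7, Zfp827 at 14.96 and 14.58 and Zfp516 at 6.08 and 6.38. Outside stood Zfp518a at 4.76 and 4.47 TPM, Zfp217 at 1.91 and 2.18, Zfp296, a gene of embryonic stem cells, at 0.12 and 0.11, and Zfp143. Its paralog Zfp523, which is ZNF76 in human, was among the 20 highest members at 42.9 and 44.2 TPM.

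The partners through which KRAB boxes act were expressed well above the members. Of 31 partner genes found in the annotation, 30 reached 5 TPM in both libraries, and their median was 51.1 TPM over the 31. Trim28, the corepressor that KRAB boxes bind, was at 206 TPM in replicate 1 and 204 TPM in replicate 2. The histone methyltransferase Setdb1 was at 32.2 and 27.6 TPM, its cofactor Atf7ip at 70.7 and 78.4, and the heterochromatin proteins Cbx3 and Cbx5 at 111 and 112 TPM and at 110 and 106 TPM. Among the DNA methyltransferases, Dnmt3a was at 91.9 and 88.9 TPM and Dnmt1 at 43.0 and 38.8. Dnmt3b, at 1.38 and 1.49 TPM, was the only gene of the list below the minimum of 5 TPM.

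Members with a KRAB letter pattern stood lower than those without. The pattern, a letter match to the core of the KRAB A box in any coding transcript, was found in 226 of the 391 genes. It was found in 118 of the 241 members (49.0%) and in 108 of the 150 genes below the minimum (72.0%). The median of the 118 members with it was 9.99 TPM, and that of the 123 without was 18.1 TPM, a log2 difference of −0.85. By library the medians were 10.3 and 18.4 TPM in replicate 1 and 9.88 and 17.8 TPM in replicate 2, the members with the pattern first each time. Zfp57 and Zfp445 were the only 2 members with the pattern at 50 TPM or more, against 9 without it. The level chose the members, so this gap is a description.

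The members varied widely in their number of fingers, and those with few fingers stood highest. The pattern was counted 2505 times over the members, with a median of 10 and a range from 0 to 36. Members with 1 to 4 fingers (37 genes) had a median of 25.9 TPM, those with 5 to 9 (69 genes) 14.8 TPM, those with 10 to 14 (86 genes) 11.4 TPM and those with 15 or more (46 genes) 12.1 TPM. The classes are not alike in the KRAB letter pattern, which 2 of the 37, 29 of the 69, 57 of the 86 and 30 of the 46 had. The 3 members with the most fingers had no KRAB pattern: Zfp142 with 36 fingers at 12.4 TPM in replicate 1 and 12.7 TPM in replicate 2, Zfp462 with 33, and Zfp236 with 30 fingers at 25.3 and 18.7 TPM. Zfp365, Zfp703 and Zfp330 had no match to the pattern. The median member with a KRAB pattern had 12 fingers and the median member without had 8.

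**Figure D2:**
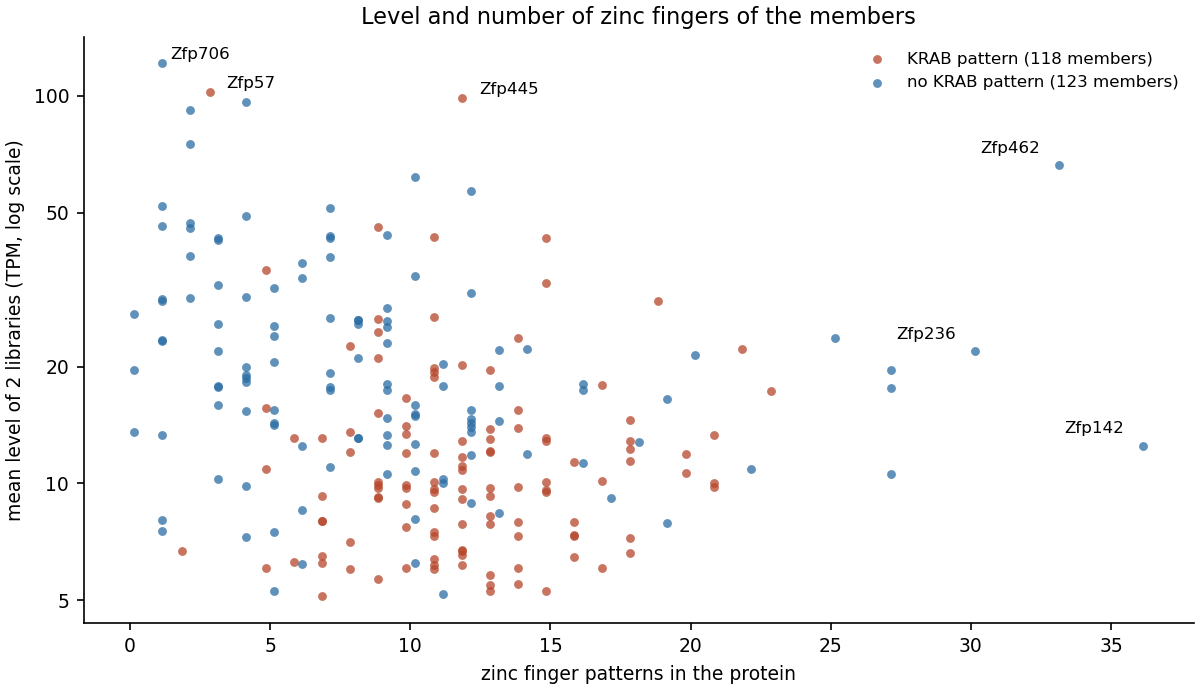
Mean TPM of the 2 libraries (log scale) against the number of zinc finger patterns in the protein, 1 point per member, coloured by the KRAB letter pattern. The highest points lie at few fingers, with Zfp445 (12 fingers, 98.6 TPM) and Zfp462 (33 fingers, 66.2 TPM) apart from them, and the points with the KRAB pattern crowd between 5 and 20 fingers.

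The 2 kinds of member also differed in how the fingers lie in the gene. In members with the KRAB pattern 98.9% of the finger patterns were coded in the last coding exon, and 116 of 118 had all of them there. In members without it 58.0% were, and 58 of the 120 with a finger had all of them there. The linker that joins neighbouring fingers, searched as a stretch of 5 residues with 1 variable position, had a median of 7 copies in members with the KRAB pattern and 1 in members without. Zfp57 is a member with a KRAB pattern but no such linker between its 3 fingers, and Zfp445 has 1 among 12.

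Clusters of Zfp genes differed greatly in how many of their genes were expressed. A cluster was taken as 4 or more protein-coding Zfp genes with gaps of at most 250 kb, and 24 were found. They hold 188 of the 391 genes, of which 101 (53.7%) were members, against 140 of 203 (69.0%) elsewhere. Among genes with a KRAB pattern 76 of 157 (48.4%) were members in clusters and 42 of 69 (60.9%) elsewhere. In 3 clusters every gene was a member. On chromosome 9 (20345136–20605409) these were Zfp560, Zfp26, Zfp426, Zfp266 and Zfp846. They ran from 10.02 and 9.01 TPM for Zfp560 up to 52.5 TPM in replicate 1 and 39.2 TPM in replicate 2 for Zfp266. On chromosome 6 (47819266–48086593) all 7 genes from Zfp786 to Zfp746 were members, at means of 6.15 to 21.1 TPM, and on chromosome 8 (71882019–71993792) all 4 from Zfp709 to Zfp961, at 6.63 to 13.9 TPM. On chromosome 17 (32765496–33631779) 12 of 13 were members, with Zfp871 at 43.4 and 42.6 TPM next to Zfp811 at 8.98 and 7.50 TPM. On chromosome 7 (29768552–30169750) 12 of 15 were members, among them Zfp146 at 34.0 and 34.5 TPM and Zfp260 at 32.4 and 29.6.

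Other clusters held few members. The cluster on chromosome 13 (67038596–67827002), with the most genes, had 5 members among 23, namely Zfp458 (11.9 TPM in both libraries), Zfp87 (12.8 and 13.0), Zfp738 (10.8 and 10.6), Zfp65 (10.3 and 9.86) and Zfp273. On chromosome 4 none of 5 genes (145510759–146198755) and 2 of 10 (146971976–147848366) were members. The 2 were Zfp991 at 6.56 and 8.08 TPM and Zfp933 at 10.01 and 9.31 TPM. On chromosome 2 (175372436–175931100) none of 4 was. The median gene of these last 3 clusters shared 87.3%, 74.1% and 97.6% of its 31-base words with other genes, in this order. The levels of genes with such shares are uncertain. Few members did not always go with many shared words. The median gene of the chromosome 13 cluster shared 14.6%. In the chromosome 7 cluster from Zfp936 to Zfp819, where 2 of 5 genes were members, the median gene shared 1.53%. In the cluster of 10 the shares ran from 9.41% for Zfp933 to 88.0% for Zfp991.

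**Figure D3:**
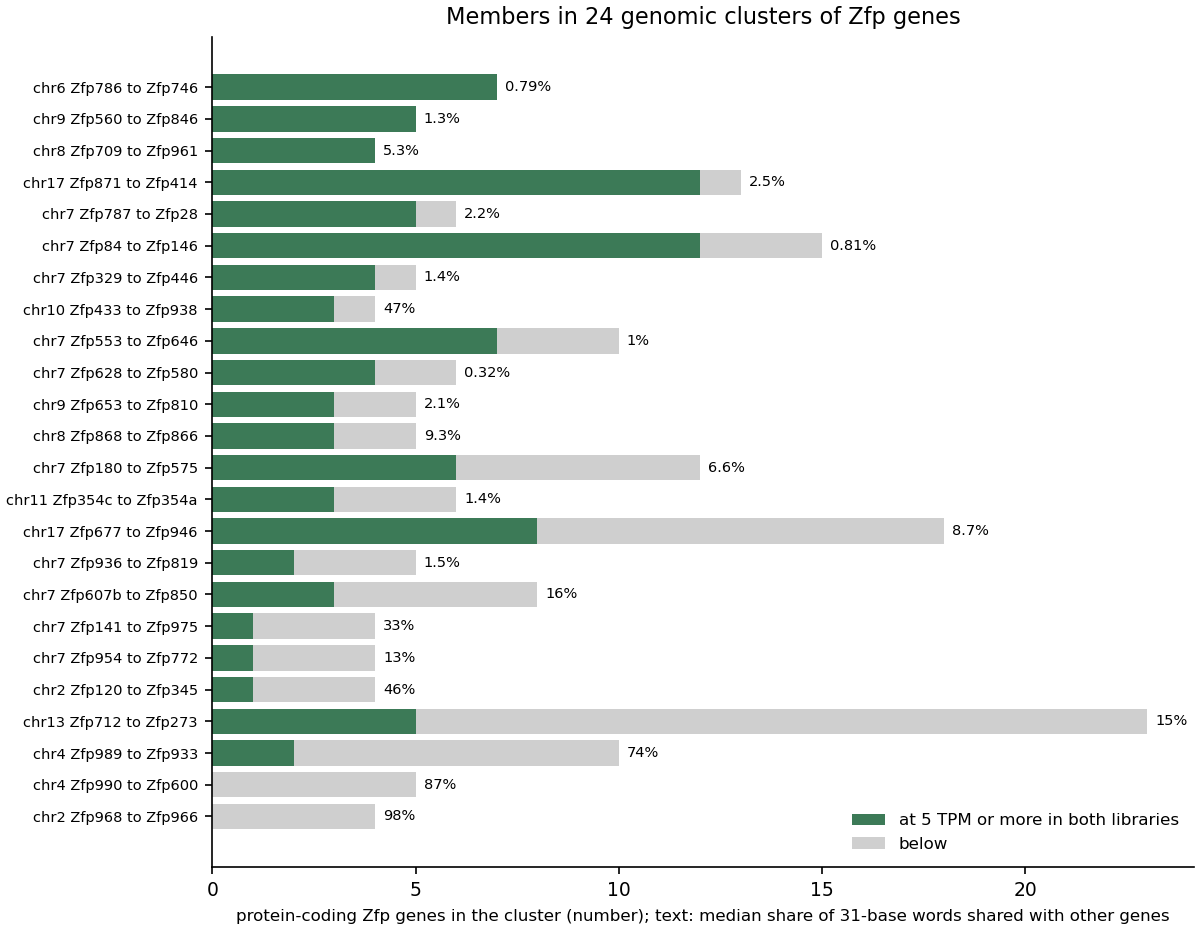
Number of protein-coding Zfp genes in each of the 24 clusters, from the cluster with the largest share of members at the top; green is the number of members, grey the genes below the minimum, and the text beside each bar is the median share of 31-base words shared with other genes. The 3 clusters at the top are all green with 0.79% to 5.3% shared words, and the 2 at the bottom have no member and 87% and 98% shared words.

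Over all 391 genes the share that were members moved with the share of words held in common. Of the 287 genes that share under 10% of their words with other genes, 210 (73.2%) were members. Of 73 genes with 10% to 50% shared, 25 (34.2%) were, and of 31 genes with more, 6 (19.4%). Among genes under 10%, 93 of 134 (69.4%) with a KRAB pattern and 117 of 153 (76.5%) without it were members, so the gap between them was smaller than over all genes, where 52.2% with and 74.5% without were. The part of shared words in the low levels was not tested.

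Zfp970 and Zfp971 on chromosome 2 are a pair with many shared words. Zfp970 shares 67.9% and Zfp971 69.5% of its 31-base words with other genes. Their coding sequences hold 25.6% and 26.5% of their words in common with each other, and the first fingers are given here for comparison, with the zinc-binding codons in capitals as before.
Zfp970: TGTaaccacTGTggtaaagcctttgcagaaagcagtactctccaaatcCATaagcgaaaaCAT
Zfp971: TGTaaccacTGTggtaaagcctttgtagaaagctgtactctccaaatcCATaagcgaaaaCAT
Of the members, Zfp970 had the largest difference between the 2 deposited quantifications. It was at 7.48 TPM in replicate 1 and 7.17 in replicate 2 against a mean of 26.8 TPM in the other. After removing the median shift of protein-coding genes (0.56 log2 units), its difference was 1.30 log2 units, and that of Zfp971 was −0.34. The part of shared words in the difference was not tested. It was the only member above 1 unit, and 227 of 241 were within 0.5 units. The next were Zfp609 (0.75), Zfp462 (−0.70), Zfp950 (−0.67) and Zfp467 (0.65). The log2 levels of the members correlated between the quantifications with a Pearson r of 0.968 over 241 genes, which share the reads, and 17 of the 20 highest members were the same.

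Short annotated transcripts held part of the highest levels. Zfp706-204, a coding transcript of 447 bases, was given 57.8 TPM in replicate 1 and 51.6 TPM in replicate 2, and 0 in the other quantification, which gave 97.8 and 84.8 TPM to Zfp706-205 (481 bases) and 92.2 and 93.6 TPM to Zfp706-203 (517 bases). Those 2 transcripts were at 1.59 TPM or less in the first quantification. The full-length Zfp706-201 (4417 bases) was at 46.3 and 48.3 TPM. Zfp462-204, with 363 bases, was given 23.1 and 24.03 TPM and 0 in the other quantification, and Zfp462-203, with 10465 bases, 37.0 and 30.8 TPM. After the median shift, the gene level of Zfp706 was 0.64 log2 units higher in the other quantification and that of Zfp462 was lower, with a difference of −0.70. The part of the short transcripts in these differences was not tested. In 5 members transcripts under 1000 bases held more than 50% of the TPM, and the median member had 12.4% there.

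Most of the level of most members lay in transcripts annotated as protein coding. The median member had 87.8% of its TPM there, against 86.6% for protein-coding genes at the minimum. In 14 members (5.81%), against 11.1% of those genes, it was under 50%. The lowest were Zfp651 with 21.4%, Zfp410 with 23.1%, Zfp945 with 30.3%, Zfp26 with 30.5% and Zfp276 with 31.5%. In Zfp651 the retained-intron transcript Zfp651-202 (15.7 TPM in replicate 1 and 15.1 TPM in replicate 2) and the decay-class transcript Zfp651-203 (13.7 and 14.8 TPM) both stood above the coding Zfp651-201 (9.89 and 8.50 TPM). In Zfp26 the retained-intron Zfp26-202 was at 9.35 and 11.2 TPM and the coding Zfp26-203 at 3.87 and 3.66 TPM. Zfp410 was less certain, because its top transcript Zfp410-213 (6.96 and 6.26 TPM) was at 0 in the other quantification, which put most of the coding level in Zfp410-201 (12.4 and 15.3 TPM).

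**Figure D4:**
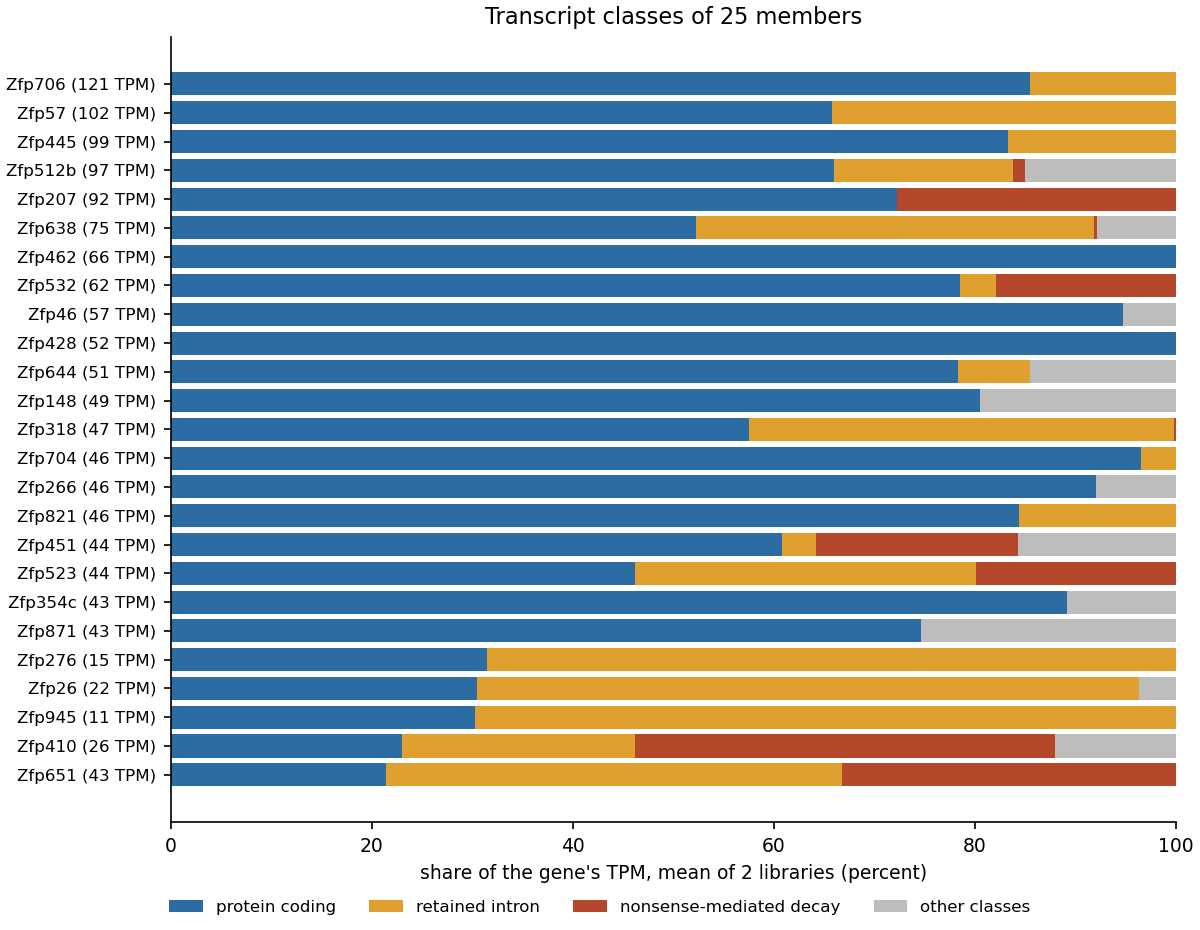
Share of each gene's TPM in transcripts of each annotated class, mean of the 2 libraries, for the 20 highest members from the top down and then the 5 members with the lowest coding share. Coding transcripts hold 21.4% in Zfp651 at the bottom and 100% in Zfp462 and Zfp428, and retained-intron transcripts hold 39.6% in Zfp638 and 34.2% in Zfp57.

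Many members share their start region with a gene on the other strand. A gene start on the opposite strand lay within 1 kb for 61 members (25.3%), close to the 27.3% of protein-coding genes at the minimum. The partner was protein coding for 25 of them. Zfp512b starts 935 bases from Prpf6, a splicing factor, at 25.8 TPM in replicate 1 and 25.4 TPM in replicate 2, and Zfp866 (20.7 and 19.7 TPM) starts 15 bases from Atp13a1 (25.9 and 27.0 TPM). Zfp646 (19.0 and 20.3 TPM) and Zfp668 (18.2 and 16.6 TPM), both members, start 607 bases from each other. The noncoding partners of 2 of the highest members were far lower than the members. Gm26766, the antisense partner of Zfp706, was at 0.42 and 0.38 TPM, and 1700007L15Rik, a noncoding partner of Zfp148, at 1.14 and 0.46 TPM. Exons of 61 members overlap a gene on the other strand, and since the use of strand in counting is not given in the sources used here, their reads may be mixed.

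Depth was 26897687 expected counts for replicate 1 and 29511737 for replicate 2. All 6 markers of cortical excitatory neurons were at 23 TPM or more in both, with sums of 643 TPM in replicate 1 and 583 TPM in replicate 2, while the liver markers summed to 1.48 and 1.47 TPM. Markers of several other cell types differed between the libraries. The 3 choroid plexus markers summed to 1.75 and 33.6 TPM, where Ttr had 1.03 and 32.4 TPM and none of the 3 reached the minimum in both libraries. The 3 red blood cell markers summed to 148 and 304 TPM, the 3 interneuron markers to 194 and 249 TPM and the 3 astrocyte markers to 150.03 and 164.17 TPM. The 2 endothelial markers summed to 57.4 and 49.98 TPM but went opposite ways. Cldn5 (48.5 and 39.9 TPM) passed the test as higher in replicate 1, while Pecam1 (8.87 and 10.05 TPM) did not pass. The 3 microglial markers, none of which passed, summed to 21.6 and 23.4 TPM. Fewer cells of a type and less RNA per cell cannot be told apart in bulk tissue, and the part of these cells in the differences between the libraries was not tested.

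The members differed little between the libraries. Counts were compared gene by gene with an exact binomial test, two-sided and adjusted by Benjamini-Hochberg over 20365 genes, and 70 of 241 members (29.0%) passed a threshold of 0.05, where 26.7% of all genes tested passed, and 37.6% of protein-coding genes at the minimum did. Of the 70, 35 were higher and 35 lower in replicate 1, each 14.5% of the members. Among all genes tested 12.8% were higher and 13.9% lower, and among protein-coding genes at the minimum 15.2% and 22.4%. The split of the members depended on the scaling, with 45 higher and 26 lower under total counts. In the other quantification it was 28 higher and 46 lower. With a ratio of 1.5-fold or more, 2 members stood out (0.830%), where 15.4% of all genes tested and 1.07% of protein-coding genes at the minimum did. The log2 TPM of the members correlated between the libraries with a Pearson r of 0.979 over 241 genes.

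Zfp950 and Zfp882 were the 2 members past 1.5-fold, both with a KRAB pattern and both higher in replicate 1. At that size 9.71% of all genes tested were higher and 5.71% lower in replicate 1. Among protein-coding genes at the minimum 0.423% were higher and 0.643% lower, and none of the members was lower. Zfp950 was at 22.4 TPM in replicate 1 and 13.5 TPM in replicate 2, a log2 ratio of 0.64 (counting SE 0.091, exact binomial adjusted p = 5.40e-11). Zfp882 was at 11.5 and 8.03 TPM, with a log2 ratio of 0.62 (SE 0.112, exact binomial adjusted p = 3.68e-07). In the other quantification Zfp950 kept 0.64 and Zfp882 had 0.54, which is under 1.5-fold. The next higher in replicate 1 were Zfp322a (0.49), Zfp971 (0.39) and Zfp983 (0.36). Those furthest the other way were Zfp810 (−0.53), with 12.1 TPM in replicate 1 and 14.8 TPM in replicate 2, Zfp949 (−0.50), with 8.77 and 11.4 TPM, Zfp777 (−0.48), with 17.7 and 24.5 TPM, Zfp956 (−0.38) and Zfp551 (−0.36). All 10 passed the test. Zfp971 and Zfp551 did not pass it in the other quantification, where the exact binomial adjusted p was 0.0909 and 0.0795. Zfp777 and Zfp956 lie in the chromosome 6 cluster, whose end genes were at 6.97 and 5.32 TPM (Zfp786) and at 16.1 and 15.8 TPM (Zfp746).

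Of the 20 highest members 13 passed the test, beside 26.7% of all genes tested and 37.6% of protein-coding genes at the minimum. The test covers counting alone, so Zfp704, with 10713 and 10959 expected counts, passed at a log2 ratio of 0.07. Of the 13, 9 were higher and 4 lower in replicate 1, and the dependence of this split on the scaling was not checked. The furthest from 0 among the 20 was Zfp266, higher in replicate 1 by 0.34 log2 units (SE 0.034, exact binomial adjusted p = 1.02e-21). Zfp207 was higher in replicate 1 by 0.27 log2 units (SE 0.032, exact binomial adjusted p = 4.55e-15), Zfp638 by 0.29 (SE 0.030, exact binomial adjusted p = 1.30e-20) and Zfp462 by 0.24 (SE 0.024, exact binomial adjusted p = 1.60e-21). Zfp57 was higher by 0.12 (SE 0.038, exact binomial adjusted p = 0.00686). Zfp445 had a log2 ratio of −0.03 (SE 0.028, exact binomial adjusted p = 0.419). Lower in replicate 1 were Zfp512b, with a log2 ratio of −0.18 (SE 0.027, exact binomial adjusted p = 2.84e-09), and Zfp46, with −0.17 (SE 0.038, exact binomial adjusted p = 0.000123). Zfp706 is a case where the unit sets the direction, with a log2 ratio of counts of −0.11 but a higher TPM in replicate 1. Such opposite signs were found for 3 of the 70 members that passed, the others being Zfp219 and Zfp318. By role list, beside the 26.7% of all genes tested and the 37.6% of protein-coding genes at the minimum that passed, 2 of the 6 imprint and retroelement genes passed, both higher in replicate 1, 3 of the 16 neural development genes (1 higher, 2 lower), 8 of the 14 RNA and ribosome genes (4 and 4) and 6 of the 16 chromatin and modification genes (2 and 4). Their median log2 ratios were 0.15, −0.04, 0.04 and 0.00, beside 0.00 over all genes tested.

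**Figure D5:**
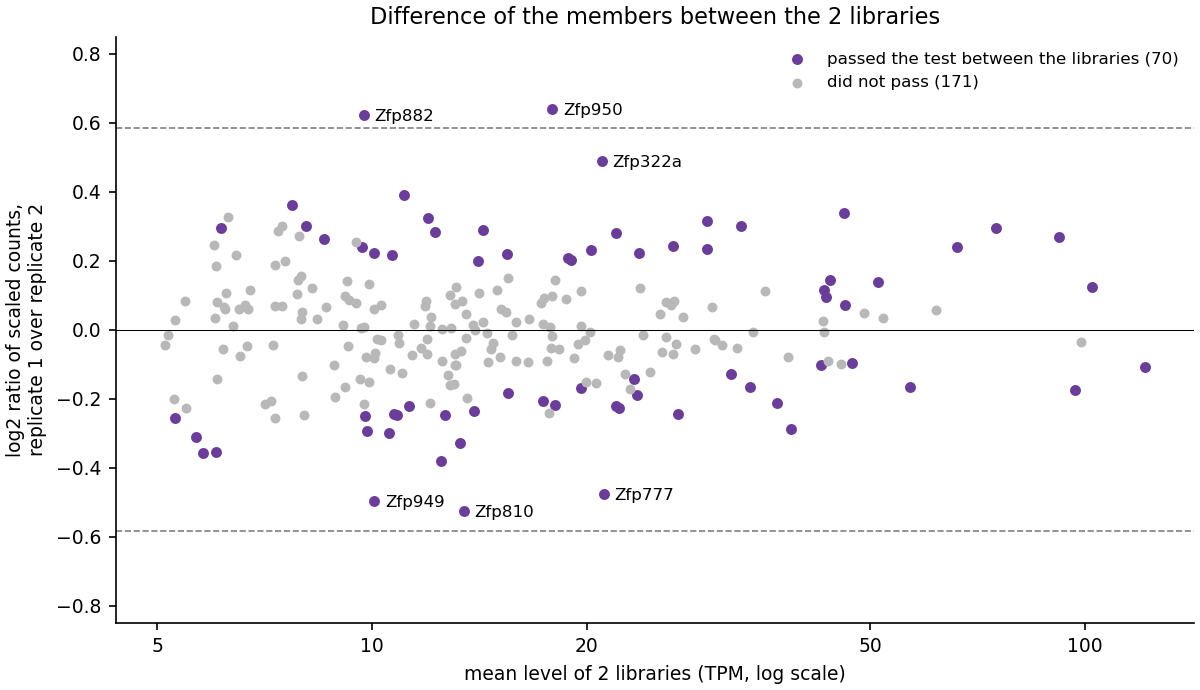
Log2 ratio of scaled counts of replicate 1 over replicate 2 for each member against its mean TPM (log scale); purple members passed the exact binomial test between the libraries, grey ones did not, and dashed lines mark 1.5-fold. Zfp950 and Zfp882 lie above the upper line and no member lies below the lower one.

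The share of Zfp genes at the minimum (61.6% of 391) was set beside that of 12 other zinc finger families by symbol, of which 5 had a larger share and 7 a smaller one. Above it were Bcl11 (2 of 2), Zbtb, whose proteins pair fingers with a BTB domain (31 of 40, 77.5%), Zkscan (8 of 11, 72.7%), Klf (12 of 17, 70.6%) and Zfhx (2 of 3). Below it were Egr (2 of 4), Zscan, which carry a SCAN domain (7 of 16, 43.8%), and Prdm (6 of 14, 42.9%). So were Zic and Ikzf (2 of 5 each), Gli (0 of 3) and the Sp symbols (3 of 12). Families were matched by symbol alone, so the Sp symbols can include genes that are not of the zinc finger Sp family. The medians of the genes at the minimum were 13.4 TPM for Zfp, 14.6 TPM for Zbtb, 10.2 TPM for Zscan and 9.27 TPM for the 8 Zkscan genes, which hold SCAN and KRAB domains. No test was made between the families, since the level chose the genes.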

How the data were processed

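Total RNA-seq of 2 libraries of newborn mouse cortex was used. The expected counts per gene and transcript were deposited by the authors, set against mm10 and GENCODE M21 per the file headers and notes. The TPM values of each library and the bounds of an interval of the TPM were also deposited by the authors, and the level of that interval is not given in the sources used here. A second set of expected counts and TPM per transcript, made from the reads of each library, is called the other quantification. The name of each quantifier is not given in the sources used here, and neither is its use of strand.

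From these values, expected counts were rounded and scaled by TMM (edgeR 4.0.16, R 4.3.3). Each gene with 10 or more counts in total was tested between the libraries by a two-sided exact binomial test (scipy 1.17.1, Python 3.11.15) with Benjamini-Hochberg adjustment at 0.05, with a prior count of 0.5 in ratios. The test compares 2 libraries, not conditions, and its error covers counting only. DESeq2 1.42.0 size factors were an alternative, and the test was tested on simulated data. Rows of spike-in RNAs and of structural RNAs with numeric names stayed out of the test, and the spike-ins held 0.323% of the counts in replicate 1 and 0.351% in replicate 2. Levels of TPM were averaged over the 2 libraries. Zinc finger, KRAB and 31-base word matches were searched in the GENCODE M21 transcripts.

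The members and lists were chosen with earlier results of these data known. The genes named are the 20 highest members, 5 on each side of the minimum, those of the role lists, the 5 largest ratios each way among members that passed, and the extremes of finger number, coding share and quantification difference. The genes named for their clusters, neighbours on the other strand and shared words were chosen after their values were seen. The result of 1 cell type marker list is not reported here.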

Additional observations from a re-analysis of the deposited data

How the results depend on the processing

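No paired analysis was possible because the 2 libraries form 1 group and no replicate number is shared between groups. Of the checks of the main values, 19 stayed within their spread or within 1.5 times under an alternative and 12 moved. Only the KRAB difference has a direction, and it kept that direction. From 1 library alone the share of counts could not leave its spread and the number of members could not fall, so those checks decide nothing. A minimum of 10 TPM left 158 members. The median level was 20.7 TPM in the other quantification and 25.2 TPM when rescaled over protein-coding genes. The other quantification also gave a share of counts of 0.991%, 1 member past 1.5-fold, a log2 difference of −0.63 between members with and without the KRAB pattern and a coding share of 86.7%. That difference was −0.84 with a looser KRAB pattern, and −0.81 among members with under 10% shared words, an alternative chosen after seeing the data. From 1 library alone there were 244 to 255 members, a median of 13.41 to 13.78 TPM, a share of counts of 0.936% to 0.963%, a KRAB difference of −0.85 to −0.84 and a coding share of 86.7% to 87.7%. The calls between the libraries numbered 50 to 74 over all alternatives, with 50 where no filter on low counts was set. Of the 30 further checks of single ratios, added after seeing the data, 28 kept their side of the threshold and 2 (Zfp971 and Zfp551 in the other quantification) did not; the cause was not tested. With 2 libraries the spread between samples is poorly known, and the levels of genes that share words with near copies are uncertain at any depth.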
